A study of Homo sapiens with 8 samples.

Results

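The 434 regions described here carried γH2AX signal called after Pt-ttpy alone, in parts of the genome where the list of untreated cells held nothing. They were selected by position from the deposited peak lists, out of 17416 Pt-ttpy regions on chromosomes 1 to 22. Chromosomes 1 to 22 were divided into 1 Mb windows, and a window was called quiet where no untreated region had its midpoint, with the long arm of chromosome 1, beyond its centromeric gap, left out. A member is a Pt-ttpy region with its midpoint in a quiet window that shares no base with any cisplatin or untreated region. The choice therefore used the calls of all 3 lists, and the absence of a member from the other lists is no finding.

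γH2AX is the form of histone H2A.X phosphorylated by the kinases ATM, ATR and DNA-PK beside DNA breaks and stalled replication forks, and it can spread far along the chromatin from a single lesion. Cisplatin binds neighbouring purines and crosslinks DNA. Pt-ttpy is a platinum complex that binds G-quadruplexes, which are stacked guanine structures that form in G-rich DNA and at telomeres. The series asked where each compound leaves this mark.

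All samples were A2780, an established human ovarian carcinoma cell line. The study has 8 samples in 4 groups of 2. They are untreated cells, cells given cisplatin and cells given Pt-ttpy (each drug at its own IC80 for 96 hours), all precipitated with an antibody to γH2AX, and input chromatin of untreated cells, which was not analysed here. The labels tie both samples of a group to 1 peak list, so each condition is a single list without replicates and no difference between conditions was tested. Read depth is not in the lists. Positions are in hg19, the build named in the submitters' processing notes. Gene content and base composition at the members were not analysed here, since the sequence and gene tables at hand belong to another build.

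Members were a small part of the Pt-ttpy list. Quiet windows held 658 Pt-ttpy regions, or 3.78% of the 17416. Of these, 434 were Pt-ttpy-only and 224 overlapped a cisplatin region. The Pt-ttpy-only share in quiet windows was 66.0% (exact 95% binomial interval 62.2 to 69.6, covering counting error only). Over all Pt-ttpy regions of chromosomes 1 to 22, 29.4% (5127) lay off both other lists, and because the rule itself used this contrast, nothing is read from the difference. The cisplatin list had 2167 regions in the same windows, of which 1944 were cisplatin-only, or 89.7%, where 51.5% of all 25132 cisplatin regions of chromosomes 1 to 22 lay off both other lists. Pt-ttpy-only regions were 18.3% (16.7 to 19.9) of the 2378 quiet-window regions called after only 1 drug, and 28.4% of such regions over chromosomes 1 to 22. The cisplatin list is also the longer list, with 26121 regions in all against 18223.

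The edge of the rule was fine-grained. Just inside it, a 101 bp member on chromosome 2 at 173016655 to 173016755 and a 201 bp member on chromosome 13 at 81493569 to 81493769 each lay 2 bp from a cisplatin region. Just outside it, a Pt-ttpy region on chromosome 1 at 98422884 to 98423054 shared 8 bp with a cisplatin region, and one on chromosome 18 at 68353285 to 68353389 shared 19 bp. In all, 11 members lay within 100 bp of a cisplatin region and 64 (14.7%) within 1 kb.

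The untreated list bears on what quiet means. Its peak numbers reach 18049, but 8848 of them are missing from the deposited list. Around each member, the numbers of the retained untreated regions on either side show how many missing regions could lie between them. Only 1 of the 434 members stood between untreated regions with consecutive numbers, so that no missing region can lie there. It was a 101 bp region on chromosome 6 at 127554323 to 127554423, with a fold of 4.56 over background and 1297 kb from the nearest treated region. For the other members the missing numbers ranged from 1 to 50, and the median over all members was 17. Of the stretches between retained untreated regions that hold members, 152 lie within 1 chromosome. They span 1677.5 Mb and lack 1796 untreated numbers, or 1.07 per Mb, against 0.498 Pt-ttpy regions and 0.254 members per Mb. In 130 of the 152 stretches there were at least as many missing numbers as Pt-ttpy regions. Whether the missing untreated regions lay at the members was not tested, and every statement below that a window was quiet refers to the list as deposited.

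Set against their whole list, the members were faint and narrow. The fold of a region is the peak caller's enrichment over its background, and it ranks regions only within 1 list. In each list the folds lay on even steps, and every fold value had a single q. The step was 0.129 in the Pt-ttpy list, 0.173 in the cisplatin list and 0.301 in the untreated list. What these unequal steps mean for the calling limits of the lists, and so for which windows count as quiet, was not tested. Members had a median fold of 3.26, with a range of 2.62 to 6.11, where the whole Pt-ttpy list on chromosomes 1 to 22 had a median of 3.91 and a highest value of 26.3. Of the members, 110 (25.3%) reached the median fold of that list, compared with 57.1% of the 224 regions called after both drugs in the same windows. The Pt-ttpy-only regions of windows with an untreated region, 3778 in number, had the same median fold of 3.26, and 15.1% of them reached the list median. The folds took 25 distinct values, of which the most common were 3.01 with 51 members, 3.26 with 50, 3.13 with 49 and 2.88 with 44. The q-value passed a -log10 limit of 5 in 128 members, or 29.5% (25.2 to 34.0). That limit was passed by 62.1% (55.3 to 68.4) of regions of both drugs in quiet windows and by 19.7% (18.4 to 21) of the 3778 Pt-ttpy-only regions in windows with an untreated region. On the left-out long arm of chromosome 1, it was passed by 3.17% (2.13 to 4.52) of the 915 Pt-ttpy-only regions in windows without an untreated region. Among cisplatin-only regions in quiet windows, 20.9% reached the median fold of their own list and 14.1% (12.6 to 15.7) passed the q limit. Fold steps differ between the lists and each fold has a single q, so the q shares of the drugs are not compared. These values come from the calls that chose the members and are given as a description.

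Width did not grow with strength. The median member was 119 bp wide, the middle 50% spanned 104 to 147.8 bp, and the range was 101 to 466 bp, where 101 bp was also the narrowest region of the list. Over the whole Pt-ttpy list on chromosomes 1 to 22 the median was 185 bp. Other regions of quiet windows were about as narrow as the members, with medians of 121 bp for Pt-ttpy regions of both drugs and 123 bp for cisplatin-only regions. Members with a -log10 q of at least 5 had a median width of 109 bp and the weaker ones 125.5 bp. In the whole list the order was the other way, with 258 bp for the stronger and 154 bp for the weaker regions. Spearman's rho between fold and width was -0.212 across the 434 members and 0.443 across all 17416 regions, as a description across regions that share the same libraries and background. The members were not alone in this. Regions of both drugs in quiet windows gave -0.182, and cisplatin-only regions there gave -0.203 against 0.426 in their whole list. Pt-ttpy-only regions of windows with an untreated region gave -0.103, so the sign was not limited to quiet windows. A wide region also has more bases with which to touch another list, and the part of this in the widths was not tested.

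**Figure D1:**
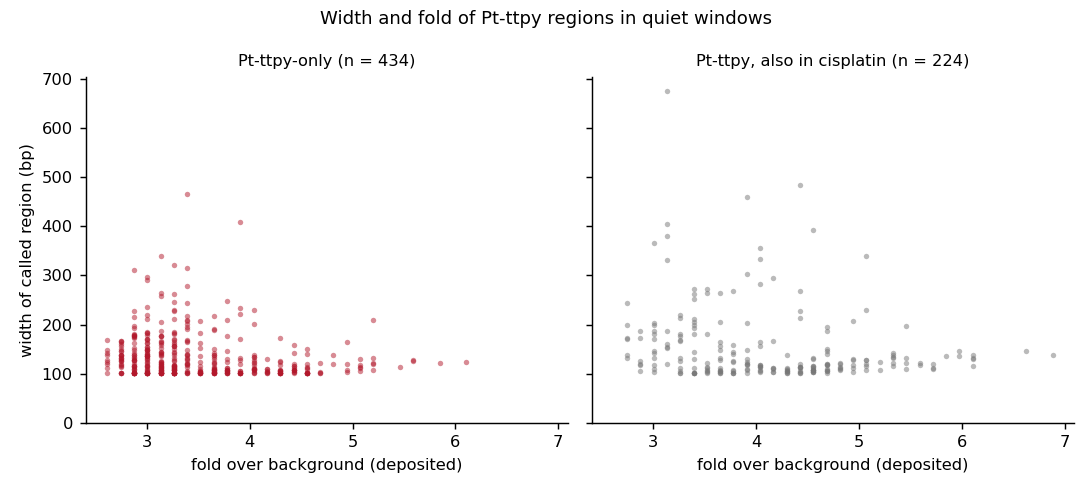
Width of each called region in bp against its deposited fold over background, for the 434 Pt-ttpy-only regions (left) and the 224 Pt-ttpy regions that overlap a cisplatin region (right), all in quiet windows. Each point is 1 region; the widest region in each panel, 466 and 675 bp, has a fold under 4, and the 5 members with folds of 5.46 to 6.11 are 113 to 128 bp wide.

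The 5 strongest members lay on 5 chromosomes, and a further 5 were tied behind them. The first was on chromosome 11 at 86760427 to 86760549, 123 bp wide, with a fold of 6.11 and a -log10 q of 15.4. It stood 541.6 kb from the nearest cisplatin region and 1565.2 kb from any other Pt-ttpy region. The second, on chromosome 13 at 81651120 to 81651240, had a fold of 5.85 and a width of 121 bp. It lay 109.9 kb from a cisplatin region, beyond the edge of a dense group of weak regions described below. A fold of 5.59 was found for a 128 bp region on chromosome 5 at 25227204 to 25227331 and for a 126 bp region on chromosome 18 at 46178252 to 46178377. The chromosome 5 region was 1926.8 kb from the nearest cisplatin region and the chromosome 18 region 140.5 kb. On chromosome 8, the region at 14666479 to 14666591 had a fold of 5.46 and was the 1 region of these 10 with a cisplatin region within 100 kb, at 3.33 kb. The 5 tied regions had a fold of 5.20 and a -log10 q of 11.3. They were on chromosome 2 at 10676418 to 10676525, on chromosome 5 at 97912390 to 97912599 and on chromosome 11 at 31378872 to 31378990, 39053900 to 39054031 and 42975348 to 42975468. Between 5 and 34 untreated numbers are missing around these 10 regions.

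The widest members were of ordinary strength. A 466 bp region on chromosome 1 at 98413852 to 98414317 had a fold of 3.39 and lay 579 bp from a cisplatin region. A 409 bp region on chromosome 6 at 68100801 to 68101209 had a fold of 3.91, with another Pt-ttpy region 137 bp away. A 339 bp region on chromosome 9 at 39016540 to 39016878 had a fold of 3.13 and lay 336 bp from a cisplatin region. Each of the 3 had a treated region within 1 kb.

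Members fell into isolated regions and regions embedded among other drug-treated regions. The distance to the nearest cisplatin region ran from 2 bp to 5527.5 kb with a median of 108.6 kb. A cisplatin region lay within 10 kb of 145 members (33.4%, 29.0 to 38.1). Counting regions of either drug, 151 members (34.8%) had a neighbour within 10 kb, 72 (16.6%) had the nearest one between 10 and 100 kb away, and 211 (48.6%, 43.8 to 53.4) had none within 100 kb. For cisplatin-only regions the isolated share was 58.7% (56.5 to 60.9) of 1944. Of the cisplatin-only regions, 13.1% had a Pt-ttpy region within 10 kb, a share that depends on the lengths of the lists as well as on position. The nearest retained untreated region was a median of 3112.9 kb from a member and never closer than 82.2 kb. Since the rule kept only windows with no untreated midpoint, long distances to untreated regions follow largely from the choice. They are not compared with the cisplatin distances. The limits of 10 and 100 kb divide a continuous range of distances.

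**Figure D2:**
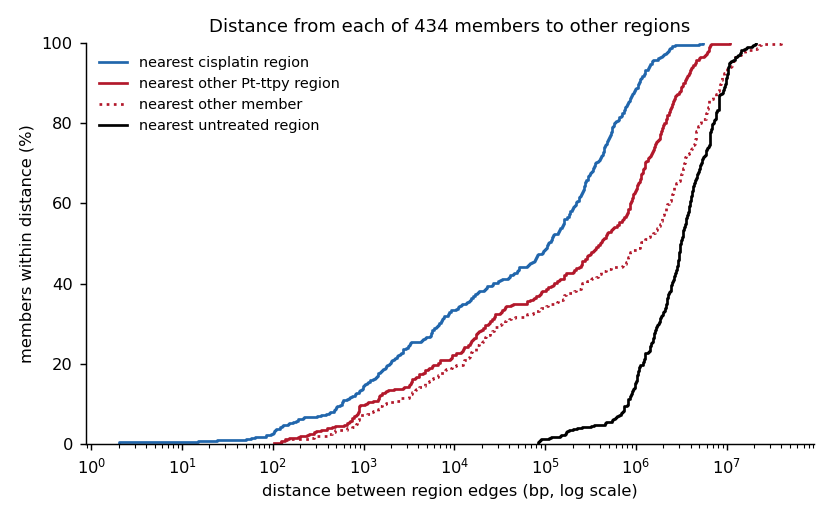
Cumulative share of the 434 members (percent) whose nearest cisplatin, other Pt-ttpy, other member or untreated region lies within a given distance in bp (log scale). The cisplatin curve reaches 33.4% at 10 kb. The untreated curve, held low by the rule's choice of windows, is at 0% there and rises to 15.4% at 1 Mb, so nothing is read from the difference.

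Isolated members more often had a -log10 q of at least 5, though most did not, and they were narrower at the median. Among the 211 with no treated region within 100 kb, the median width was 112 bp and 40.3% (33.6 to 47.2) had a -log10 q of at least 5. Among the 151 within 10 kb of a treated region, the median width was 131 bp and 19.9% (13.8 to 27.1) passed that limit. For the 72 members between 10 and 100 kb, the median width was 121.5 bp and the share was 18.1% (9.98 to 28.9). Of the 54 members in the 5 densest windows described below, 83.3% lay within 10 kb of a cisplatin region and 3.70% passed the limit. The shares by distance without those windows were not computed. The median folds were close, at 3.39 for isolated members and 3.26 for those at either shorter distance, which are neighbouring steps of the fold scale. Read the other way, 66.4% of the 128 members with the stricter q were isolated, against 41.2% of the 306 weaker ones. At the far end, 49 members lay more than 1 Mb from any cisplatin region, and 46.9% of them (32.5 to 61.7) had the stricter q, compared with 12.5% (5.55 to 23.2) of the 64 within 1 kb of one. The farthest was a 121 bp region on chromosome 6 at 163262863 to 163262983 with a fold of 4.04. Beyond the 1 bp overlap, the rule did not use distance to cisplatin or other Pt-ttpy regions. It did use the position of untreated regions, through the choice of windows. The rule did remove Pt-ttpy regions that overlap a cisplatin region, and 62.1% of those in quiet windows passed the q limit. Such removal is possible only where cisplatin regions lie, and its part in these differences was not tested. Members share their libraries, so no p-value is attached.

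Most windows with a member had 1, and a few had many. Of the 2897 windows, 2314 were quiet and 2154 of these held assembled sequence, 2144.1 Mb in all. A member was found in 291 (13.5%) and a cisplatin-only region in 1018 (47.3%). Single members filled 240 windows, pairs 29 windows, and 22 windows held 3 or more, together 136 members or 31.3%. In 110 windows, with 120 members, there was no cisplatin region at all, and none of these windows held 3 or more members. Both kinds of 1-drug region met in 172 windows, which are 59.1% of the windows with a member and 16.9% of those with a cisplatin-only region. No region of any list lay in 955 of the quiet windows.

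Windows rich in members were rich in cisplatin-only regions. The mean number of cisplatin-only regions was 0.710 in quiet windows without a member, 0.983 in those with 1 member, 2.45 in those with 2 and 14.3 in those with 3 or more. In 17 of these last 22 windows cisplatin-only regions outnumbered members, and in 4 they were fewer. Taken from the cisplatin side, 16 windows held 8 or more cisplatin-only regions, a limit chosen after the values were seen, and each of the 16 held at least 2 members. These 16 windows held 24.7% of the members and 15.8% of the cisplatin-only regions. A member was present in 15.6% of the 1002 windows with 1 to 7 cisplatin-only regions and in 10.5% of the 1136 with none. At the scale of 1 Mb the densest places of both 1-drug sets were therefore shared, although by the rule no member shares a base with a cisplatin region.

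**Figure D3:**
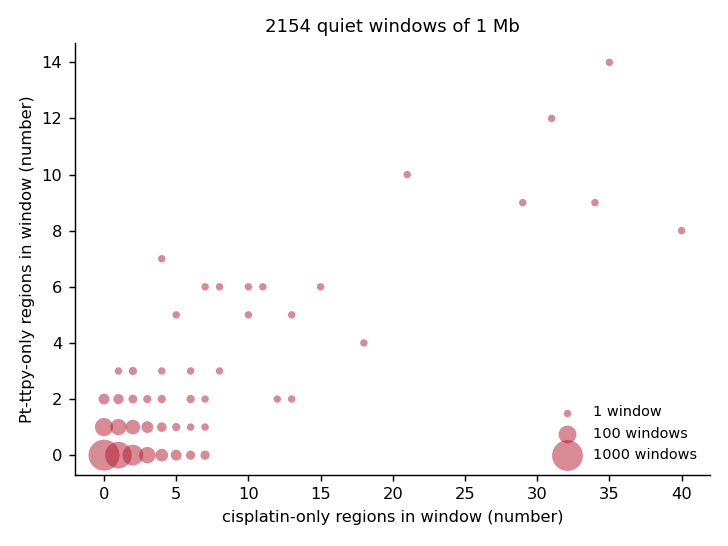
Number of Pt-ttpy-only regions (vertical) against the number of cisplatin-only regions (horizontal) in each of the 2154 quiet windows with assembled sequence; point area grows with the number of windows at that pair of values. All 16 windows with 8 or more cisplatin-only regions sit at 2 members or higher, and the densest has 14 members and 35 cisplatin-only regions.

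The 5 densest windows held 54 members (12.4%), nearly all of them weak. Only 2 of the 54 (3.70%) had a -log10 q of at least 5, against 33.2% of the other 380 members, and 45 (83.3%) lay within 10 kb of a cisplatin region, against 26.3% of the others. The window from 81 to 82 Mb on chromosome 13 had 14 members among 35 cisplatin-only regions and 7 Pt-ttpy regions of both drugs. There, 13 members stood in 65.1 kb from 81464155 to 81529208, with folds of 2.75 to 3.39 and widths of 101 to 263 bp. Every one of these 13 was within 2722 bp of a cisplatin region, and 28 cisplatin regions fell in the same 65.1 kb. The fourteenth member of the window is the region of fold 5.85 named above. The nearest retained untreated region was 8.21 Mb away. Between the retained untreated regions on either side, 20.8 Mb apart, 34 untreated numbers are missing.

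In the other dense windows the members were spread more widely. On chromosome 14 from 48 to 49 Mb, 12 members spanned 556.7 kb with folds of 2.75 to 3.39. They ranged from 0.471 to 107.3 kb from a cisplatin region, with 31 cisplatin-only regions in the window. On chromosome 7 from 110 to 111 Mb, 10 members spanned 196.4 kb with folds of 2.88 to 3.52, all of them within 6.20 kb of a cisplatin region. The window from 73 to 74 Mb on chromosome 2 held 9 members and 34 cisplatin-only regions, and only 1 region of both drugs. Its strongest member, 134 bp wide, had a fold of 4.04. On chromosome 11 from 41 to 42 Mb there were 9 members, 29 cisplatin-only regions and no region of both drugs, so here the lists lay side by side without a single overlap. Untreated numbers missing around these 4 windows were 43, 32, 24 and 24.

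**Figure D4:**
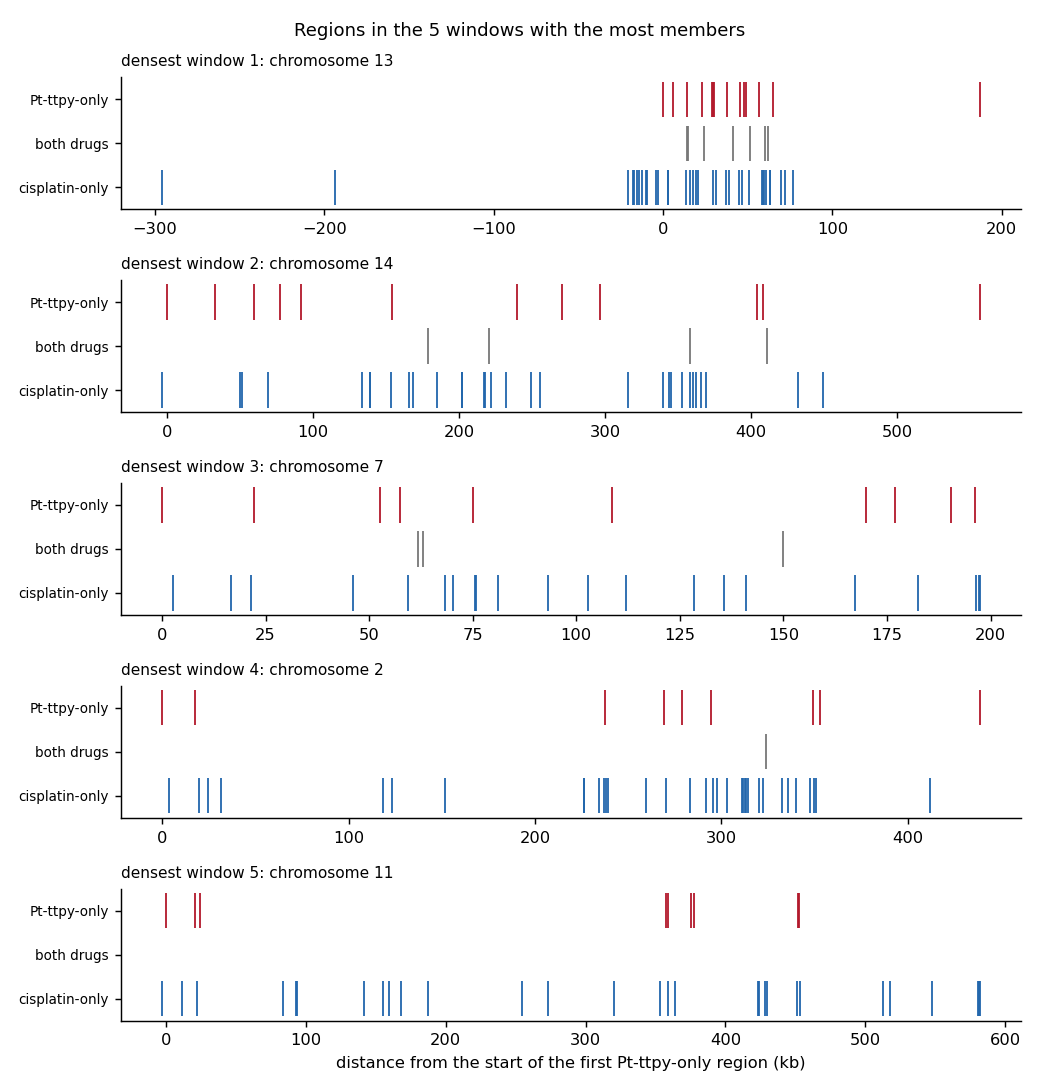
Positions of Pt-ttpy-only (red), both-drug (grey) and cisplatin-only (blue) regions in the 5 windows with the most members, each tick 1 region, as distance in kb from the first member of the window. On chromosome 13 the members lie within a block of 65.1 kb that cisplatin regions also fill, apart from 1 strong member to the right; on chromosome 11 no region is of both drugs.

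Some members formed tight groups. With neighbours up to 10 kb apart joined, 350 members stood alone and 84 formed 27 groups, 6 of them with 4 or more members. The 5 densest windows held 11 of these groups with 33 members, and 16 groups with 51 members lay elsewhere. After the chromosome 13 block, the largest had 7 members in 13.1 kb on chromosome 1, from 98412163 to 98425308, with folds of 2.88 to 4.04 and 4 cisplatin regions among them. On chromosome 5, 6 members in 18.7 kb from 175349466 to 175368201 had folds of 2.88 to 3.65, beside 7 cisplatin regions. Groups of 5 lay on chromosome 2 from 173016655 to 173025341 and on chromosome 17 from 43651566 to 43660526. The chromosome 17 group had folds of 3.13 to 4.04 and 6 cisplatin regions in its 8.96 kb. The chromosome 2 group had folds of 2.75 to 3.26, and its first member was also the closest of all to a retained untreated region, at 82.2 kb. A group of 3 on chromosome 11 from 14359369 to 14361266 differed in having no cisplatin region among its members, with folds of 3.52, 3.13 and 3.78. Its members stood 912, 1850 and 2708 bp from one. These groups were picked after their sizes were seen.

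All autosomes carried members. Over quiet assembled sequence there were 0.202 members per Mb, and 0.907 cisplatin-only regions per Mb. By chromosome, members ranged from 0.0811 per Mb on chromosome 19 (3 members) to 0.392 on chromosome 11 (42), followed by 0.341 on chromosome 13 (28) and 0.306 on chromosome 16 (19). Chromosome 2 had the most members, 57, at 0.288 per Mb. Isolated members ranged from 0.0270 per Mb on chromosome 19, with 1 such member, to 0.221 on chromosome 21, with 6. On chromosome 13, which holds the densest window, 8 of 28 members were isolated, and on chromosome 10, 10 of 11. The share of Pt-ttpy-only among 1-drug regions ran from 10.0% (5.10 to 17.2) on chromosome 10 to 44.4% on chromosome 22, where it rests on 4 members and 5 cisplatin-only regions (13.7 to 78.8). Chromosome 10 was low with a count of 11 members to 99 cisplatin-only regions. Its interval overlapped those of neighbours in the order, such as chromosome 15 at 11.6% (5.14 to 21.6).

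**Figure D5:**
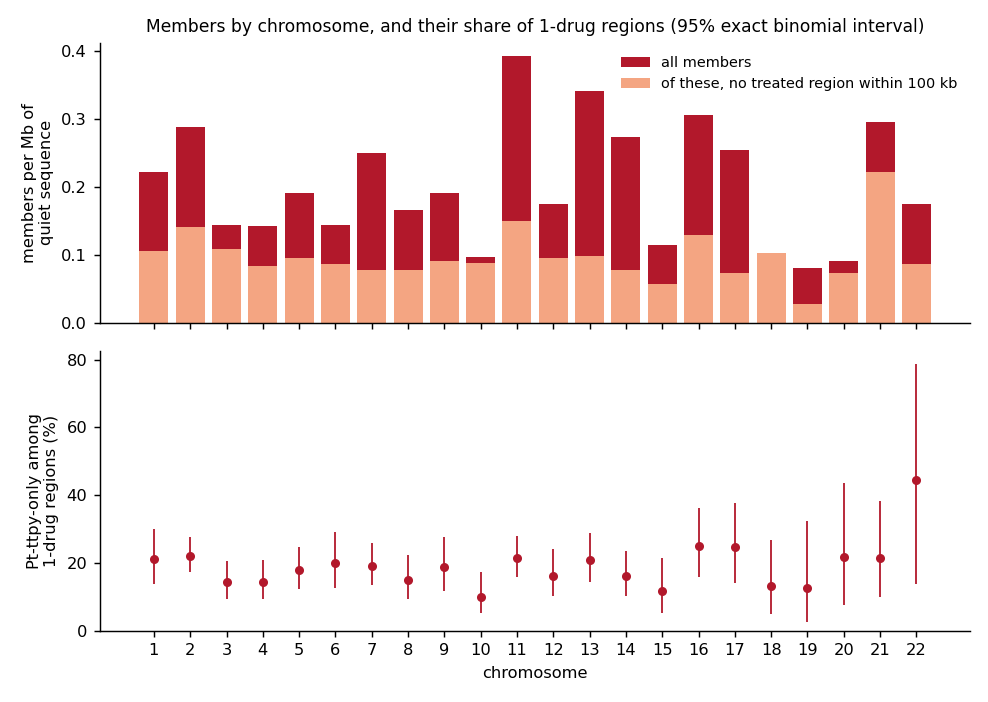
Top, members per Mb of quiet assembled sequence on each chromosome (dark bars), with the part that has no treated region within 100 kb in light colour. Bottom, the percentage of 1-drug regions in quiet windows that are Pt-ttpy-only, with exact 95% binomial intervals; chromosome 11 has the highest density (0.392) and chromosome 22 the widest interval.

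Of the quiet windows, 21 had a base within 1 Mb of a chromosome end. They held 6 members, and 5 members were themselves within 1 Mb of an end. The closest was on chromosome 8, 63.2 kb from the last base, at 146300690 to 146300797, with a fold of 4.43. On chromosome 20 a region at 62945141 to 62945252, with a fold of 3.26, lay 80.3 kb from the end and 8.45 kb from a cisplatin region. On chromosome 2 there were 2 members, at 242929532 to 242929632 and 242950482 to 242950588, with folds of 4.56 and 4.30, 269.7 and 248.8 kb from the end. The last was a region on chromosome 11 at 134709988 to 134710165, with a fold of 3.01, at 296.4 kb. Of these 5 members 3 had a -log10 q of at least 5, and between 1 and 8 untreated numbers are missing around them. Within 5 Mb of a large assembly gap at a centromere or acrocentric short arm there were 20 members (4.61%), where 5.94% of the quiet windows have an edge that close. A window is counted whole by its edge and a member by its own distance, so nothing is read from the difference.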

How the data were processed

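Per the submitters' processing notes, reads were handled with BWA 0.7.5 and MACS2 2.1.0 on hg19. The calling settings, and whether reads were pooled or untreated cells served as control, are details not given in the sources used here. Per the labels' protocols, chromatin fragments of 200 to 700 bp were sequenced as single reads of 50 bases. The authors deposited 1 peak list per condition. For each region the authors deposited a fold enrichment ratio, a -log10 p (not used here), a -log10 q, a score of 10 times the -log10 q and a summit offset.

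From these lists the members were found by the rule given in the results, with overlap of at least 1 bp. Distances are between region edges. Chromosome lengths and large gaps of hg19 were entered from general knowledge, and 0 regions lay wholly inside a gap or beyond an end. Intervals are exact binomial at 95% and cover counting error only, not variation between cultures. The rule was tested on simulated data. Regions named are the 8 strongest by -log10 q (ties by position), the 3 widest, the 5 densest windows and 2 on each side of the rule's edge. The 2 regions tied with the last of the 8, chromosome ends, groups and the farthest region were added later. Members and lists were chosen with earlier results of these data known. Planned values of GC content, G-run motifs and gene position were not computed, because the reference tables are of another build. Tables were made with pandas 2.3.3 and numpy 2.4.6, intervals with scipy 1.17.1 and plots with matplotlib 3.10.9, under Python 3.11.15.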

Additional observations from a re-analysis of the deposited data

How the results depend on the processing

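The number of members, 434 as reported, fell to 128 under a stricter -log10 q limit of 5, was 1349 when the long arm of chromosome 1 was kept, and was 1 when members were limited to places between consecutive untreated numbers. Under the other 7 alternatives it stayed between 370 and 498: a gap of up to 1 kb counted as shared, overlap of at least 50% of the region required, windows of 500 kb or 2 Mb or shifted by 500 kb, regions within 1 kb merged, and the 5 densest windows left out, the last chosen after seeing the data. With shifted windows 385 of the 434 members were found again among 440. The share within 10 kb of a cisplatin region, 33.4%, was 21.1% with the stricter q, 21.9% with the 1 kb gap, 27.8% after merging, 26.3% without the 5 densest windows, 67.9% with all of chromosome 1 and 0% for the 1 region between consecutive numbers. The isolated share, 48.6%, was 66.4% with the stricter q, 57.0% with the 1 kb gap, 55.0% without the 5 densest windows, 15.6% with all of chromosome 1 and 100% for the 1 region. The share between consecutive untreated numbers stayed between 0.0741% and 0.781% under its 9 alternatives. No paired analysis was possible because each condition is 1 list without replicate values, and for the same reason no replicate could be left out. The planned values of GC content, G-run motifs and gene position were not run. Depth is unknown, and the lists were called separately, so a region absent from the cisplatin list may lie below its calling limit, which was not tested.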

Other observations

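The same rule applied to chromosome X, which the members leave out, gave 28 Pt-ttpy-only regions among 43 Pt-ttpy regions in quiet windows, beside 150 cisplatin-only regions. On the long arm of chromosome 1, also left out, windows without an untreated region held 1062 Pt-ttpy regions. Of these 915 were Pt-ttpy-only, beside 2682 cisplatin-only regions, so that stretch alone held more such regions than all the quiet windows described above.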
